A study of Mus musculus with 2 samples.

Results

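Desmin (Des), the striated muscle kinase Speg, the obscurin-like protein Obsl1 and the Z-disc protein Ldb3 are genes best known from muscle, and each had 1 region in a deposited list of differentially methylated regions of mouse hippocampus. The 4 regions were all distinct regions in the list that carried one of these symbols, out of 276 in all. They were chosen by their place in that list, which was itself selected on the difference in methylation between 2 libraries. Hippocampal DNA was examined by reduced representation bisulfite sequencing (RRBS), which cuts DNA with MspI at CCGG, selects short fragments and reads the methylation of their CpG sites. The choline library, labelled F1m-GCS, represents mice whose mothers ate a diet with 5 g/kg of choline chloride during pregnancy, starting on embryonic day 9 and ending at birth. The control library, labelled F1m-CON, represents mice whose mothers ate a diet with 1.1 g/kg. Offspring of both kinds were given a basal diet after birth and were tested for mood-related behaviour at 2 months of age. The sources used here do not name the strain, the age at which tissue was taken or the number of animals in each library. With 1 library per group the variation among animals is unknown, and no test of the diets is given.

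Striated muscle fibres are held in register by a cytoskeleton that surrounds the sarcomere, the repeating contractile unit. Desmin is the intermediate filament that links neighbouring Z-discs, the borders of the sarcomere, and in the brain it is known from the smooth muscle and pericytes of blood vessels. Speg belongs to the family of myosin light chain kinases and is needed at the junctions where voltage and calcium release are coupled. Obsl1 is a relative of obscurin that also forms the 3M complex with Cul7 and Ccdc8 in cells outside muscle. Ldb3, also called ZASP or Cypher, is a PDZ and LIM domain protein that binds alpha-actinin at the Z-disc. Methylation of CpG sites near a gene's start is often low where the gene can be transcribed, while sites within gene bodies are often methylated. RNA was not measured in these libraries, so nothing is known here about the expression of the 4 genes.

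The regions lay at different parts of their genes, and the sequences next to or within them are shown to give the CpG context that RRBS reads. Positions of regions are those of the deposited table, which do not match the GRCm38 gene models, and reference sequence was therefore taken by gene and transcript and not by those positions. The intron that held the Ldb3 region spanned 35357604 to 35365362 of chromosome 14 in the table, while Ldb3 spans 34526699 to 34590314 in GRCm38. The following sequences are from RefSeq (GRCm38.p6), on the coding strand, with every CG in capitals. For Des and Obsl1 they are the 250 bases before the annotated start (chr1:75360042-75360291, plus strand, and chr1:75506453-75506702, minus strand), and for Speg the first 194 coding bases (chr1:75375440-75375633, plus strand).

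Des: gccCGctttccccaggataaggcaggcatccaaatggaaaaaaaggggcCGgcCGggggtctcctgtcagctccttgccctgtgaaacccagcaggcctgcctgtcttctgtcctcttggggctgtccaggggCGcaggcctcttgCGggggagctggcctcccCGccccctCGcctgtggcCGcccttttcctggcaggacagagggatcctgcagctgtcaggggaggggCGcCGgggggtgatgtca

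Speg: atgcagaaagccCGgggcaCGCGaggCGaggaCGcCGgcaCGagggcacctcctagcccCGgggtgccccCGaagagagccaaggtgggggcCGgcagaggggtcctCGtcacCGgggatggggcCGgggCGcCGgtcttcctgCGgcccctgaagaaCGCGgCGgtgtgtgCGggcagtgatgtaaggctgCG

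Obsl1: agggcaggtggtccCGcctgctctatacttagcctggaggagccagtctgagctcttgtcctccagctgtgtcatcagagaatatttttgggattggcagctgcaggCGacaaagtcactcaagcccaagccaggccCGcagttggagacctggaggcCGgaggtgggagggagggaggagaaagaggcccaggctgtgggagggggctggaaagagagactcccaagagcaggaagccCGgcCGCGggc

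The Des stretch held 10 CG and 3 CCGG in 250 bases and had a GC content of 67.2%. The Obsl1 stretch held 7 CG and 2 CCGG, with a GC content of 62.0%. Among 32851 RefSeq windows of the same length and position, the median was 6 CG, and 47.1% held at least 1 CCGG. The Obsl1 region lay inside the transcript and so outside the Obsl1 stretch. By the table's start the Des region ended 298 bp before the gene, beyond the 250 bases of the Des stretch. The table's Des start was not matched to the GRCm38 start, so the stretch and the region may share a few bases at their edge. The E-box motif CANNTG, which reads the same on both strands and is bound by myogenic and other basic helix-loop-helix factors, occurred 2 times at Des and 4 times at Obsl1, and was present in 66.2% of all windows. The CArG box, the motif of serum response factor, was found in neither stretch on either strand and in 1.47% of all windows. The Speg stretch was denser, with 21 CG and 7 CCGG in 194 bases and a GC content of 73.2%.

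The Des region lay upstream of the gene (chromosome 1, 75356535 to 75356621, 87 bp, 8 CpG sites). It ended 298 bp before the start that the table gives and began 384 bp before it, and its lines are annotated as promoter and upstream sequence. In the control library 46 of 132 CpG calls were methylated, a level of 34.8% (exact Clopper-Pearson 95% interval 26.8 to 43.6). In the choline library 57 of 104 calls were methylated, a level of 54.8% (44.7 to 64.6). The choline library was thus higher by 20.0 percentage points, and the intervals did not overlap. The intervals cover counting error only, and they treat CpG calls as independent although several calls can come from 1 read. Taking the mean depth of 16.5 and 13.0 as the number of reads, the intervals were 13.6 to 61.7% and 25.9 to 81.5%, and these overlapped. This holds only if each read covers every CpG site of the region. Where reads cover fewer sites, there are more reads than the mean depth. The true number of reads is not known here for any of the 4 regions. Des had the highest levels of the 4 genes, and its choline level was exceeded by 12 of the 276 listed regions.

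The Speg region covered the start of the coding sequence (chromosome 1, 75372005 to 75372208, 204 bp, 14 CpG sites). By the table's lines it took in the last 10 bp of a 143 bp stretch of 5' UTR and the first 194 bp of a 394 bp coding stretch. Those lengths are the ones of the first exon of a RefSeq Speg transcript, the exon from which the Speg sequence above was read. In the control library 129 of 491 calls were methylated, a level of 26.3% (exact 95% interval 22.4 to 30.4). In the choline library 38 of 287 calls were methylated, a level of 13.2% (9.54 to 17.7). Speg was the 1 gene of the 4 with a lower level in the choline library, by a difference of -13.0 points, and the intervals on calls did not overlap. With depths of 35.1 and 20.5 as the number of reads the intervals were 12.9 to 43.8% and 2.51 to 35.4%. MspI cuts within the reference sequence of this stretch, so 1 read need not cover all 14 sites and the reads can outnumber the depth. Speg was the deepest of the 4 regions in both libraries and the 1 whose depth reached 20 in both. The same region also counted as upstream sequence of Gm15179, a predicted gene on the other strand, whose start lay 415 bp from the nearer end of the region.

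In the reference sequence of the Speg stretch, 7 of the 21 CG lay in MspI fragments of 40 to 220 bp, the insert size that the labels' protocols give. The remaining 14 lay in 6 fragments of 8 to 33 bp. The deposited number of CpG sites for the region was 14 over 204 bp. The table does not say which sites were counted or whether the strands were counted separately, so the 2 numbers cannot be matched site by site.

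The Obsl1 region was the shortest of the 4 (chromosome 1, 75502901 to 75502944, 44 bp, 5 CpG sites). It lay 83 to 126 bp inside the transcript, in a 5' UTR stretch of 228 bp, the length that the 5' UTR has in both curated RefSeq transcripts of Obsl1. In the control library 2 of 149 calls were methylated, a level of 1.34% (exact 95% interval 0.163 to 4.76). In the choline library 4 of 26 calls were methylated, a level of 15.4% (4.36 to 34.9). The difference was 14 points, and the intervals overlapped even on calls. The choline depth was 5.2, and the 4 methylated calls were fewer than the 5 CpG sites of the region, so a single read methylated at 4 sites would give this level. The region is also upstream of Inha, the alpha subunit of the hormone inhibin, whose start lay 708 bp beyond it on the opposite strand, so it is shared between the starts of 2 genes.

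The Ldb3 region lay deep in the gene (chromosome 14, 35362072 to 35362219, 148 bp, 5 CpG sites), in an intron of 7759 bp and 3143 bp from its nearer end. Ldb3 is on the minus strand, and the table repeats this intron in 5 identical lines. An intron of exactly this length is present in 5 of the 7 curated RefSeq transcripts of Ldb3, as intron 8, 9 or 10 by transcript, and the other 2 transcripts lack it. In the control library 2 of 158 calls were methylated, a level of 1.27% (exact 95% interval 0.154 to 4.5). In the choline library 10 of 45 calls were methylated, a level of 22.2% (11.2 to 37.1), higher by 21.0 points. The intervals on calls did not overlap. The choline depth was 9.0, and 10 methylated calls over 5 CpG sites equal 2.0 fully methylated reads. With depth as the number of reads the intervals were 2.3e-04 to 13.3% and 2.81 to 60%, and they overlapped, as they did in all 4 regions. These intervals suppose that each read covers every CpG site, so the overlap is not a result on counted reads. In the control library 22 of the 276 regions had a lower level than Ldb3.

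**Figure D1:**
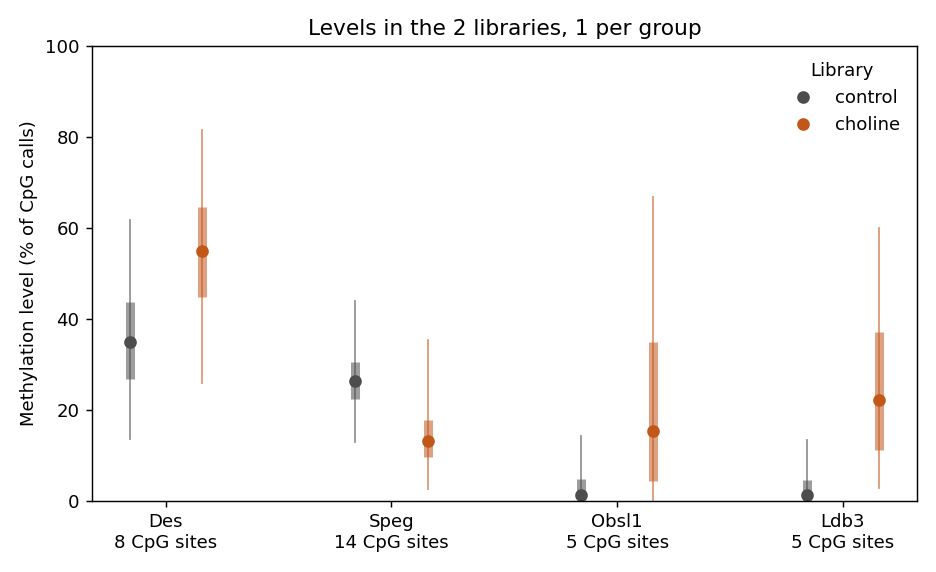
Methylation level (% of CpG calls) of the 4 regions in the control library (grey) and the choline library (orange), 1 library per group. Points are levels, thick bars are exact 95% intervals on CpG calls and thin bars the same with mean depth as the number of reads. Mean depth is the number of reads only if each read covers every CpG site of a region. The thick bars are separate at Des, Speg and Ldb3 and overlap at Obsl1, and the thin bars overlap at all 4. All listed regions were selected on a difference between these libraries. How many of them have separate bars was not counted, so nothing particular to the 4 genes is read from this.

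The 4 genes did not share a direction. Des, Obsl1 and Ldb3 were higher in the choline library and Speg was lower, or 3 of 4, beside 203 of 276 listed regions (73.6%). The listing itself rests on the difference between these libraries, so the levels are a description and were not tested again. The median size of the difference was 17.0 points over the 4 regions (range 13.0 to 21.0) and 12.5 points over all listed regions (range 10 to 30.5). Ldb3 ranked 19, Des 26, Obsl1 99 and Speg 126 of 276 by size of difference. The table holds no region with a difference under 10 points, and how regions just below that size compared is not known here.

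The genes fell into a pair with intermediate levels and a pair that was almost unmethylated in the control library. Des and Speg stood at 34.8% and 26.3% in the control library, above its median of 15.9% over all listed regions. Obsl1 and Ldb3 stood at 1.34% and 1.27%. Among the 276 regions, 33 had a control level below 2%, and all 33 were higher in the choline library, a direction that the least difference of 10 points fixes. Of these, 8 reached at least 15% in the choline library, Obsl1 and Ldb3 among them, and 2 reached at least 20%. All 8 had a choline depth below 10, as did 27 of the 33.

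**Figure D2:**
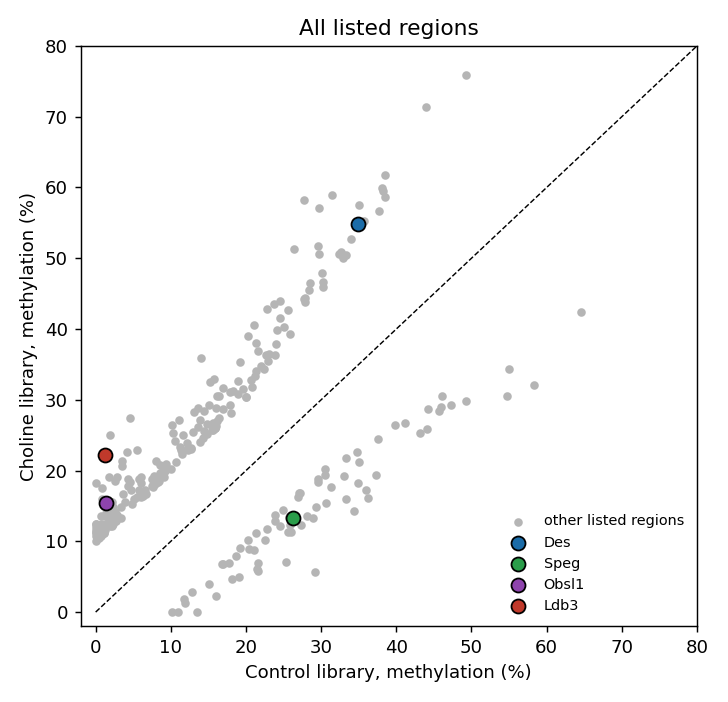
Methylation (%) of all 276 listed regions in the control library (x axis) and the choline library (y axis), with the 4 genes in colour and the dashed line marking equal levels. Des, Obsl1 and Ldb3 lie above the line, Speg lies below it, and the empty band along the line is the least difference of 10 points among listed regions.

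Depth differed between the libraries in the same sense at all 4 genes. The control library was deeper at each of them, as it was at 218 of the 276 regions. The ratio of control to choline depth was 1.27 at Des, 1.71 at Speg, 3.51 at Ldb3 and 5.73 at Obsl1, beside a median of 1.49. The ratio at Obsl1 was the sixth highest in the list. The pair with low control levels was therefore also the pair with the most uneven depth, and the part of depth in their differences was not tested. Obsl1 and Ldb3 were among 81 regions with a choline depth below 10.

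**Figure D3:**
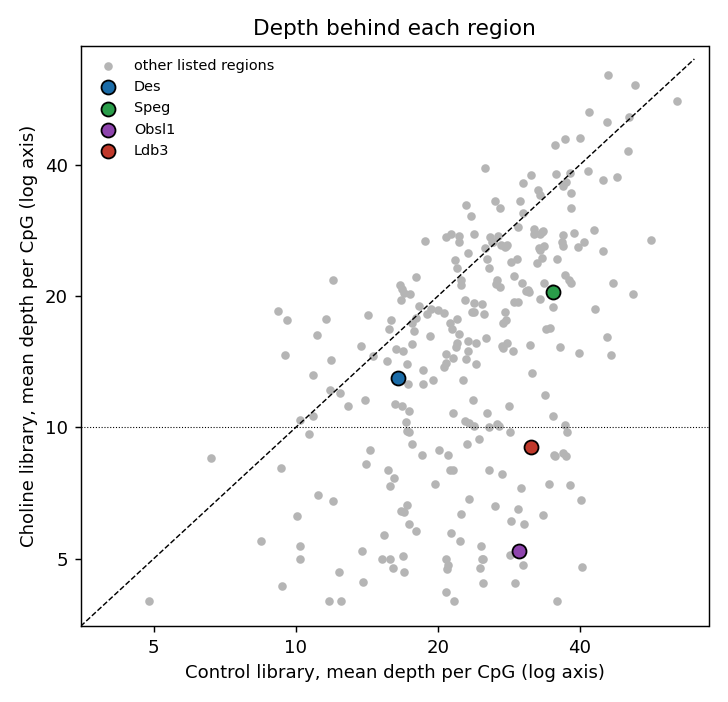
Mean depth per CpG of all 276 listed regions in the control library (x axis) and the choline library (y axis), both on log axes, with the dashed line at equal depth and the dotted line at a choline depth of 10. All 4 genes lie below the dashed line, and Obsl1 (5.2) and Ldb3 (9.0) lie below the dotted line.

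The 4 regions also differed in the density of the CpG sites that the table counts, which need not be all CG in their sequence. Density was 11.4 counted CpG sites per 100 bp at Obsl1, 9.2 at Des, 6.86 at Speg and 3.38 at Ldb3, and the median of the list was 8.92. At Speg the table counted 14 sites over 204 bp, while the first 194 coding bases of the reference held 21 CG. The order of the regions by CG content of their sequence is therefore not known here. By counted sites the intronic Ldb3 region was the sparsest of the 4, and 20 of the 276 regions were sparser. Obsl1 and Ldb3 had 5 CpG sites, the lowest number in the list and one they shared with 41 other regions. The regions of Des, Speg and Obsl1 are within 1 kb of a gene start that the table's lines give, and lines annotated as promoter cover 96 of the 276 regions. The promoter line of the Obsl1 region belonged to Inha, and Obsl1 itself had a 5' UTR line.

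**Figure D4:**
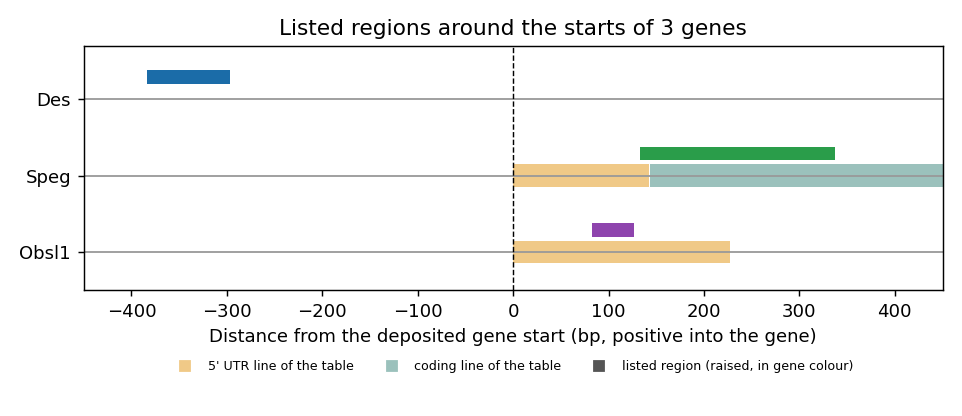
Position of the listed regions of Des, Speg and Obsl1 (raised coloured bars) by distance in bp from the gene start that the deposited table gives, with positive values into the gene and the 5' UTR and coding lines of the table as boxes. The Des bar lies 384 to 298 bp upstream, the Speg bar runs over the border of 5' UTR and coding sequence, and the Obsl1 bar lies 83 to 126 bp inside the 5' UTR.

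Des, Speg and Obsl1 are neighbours on chromosome 1. The Des and Speg regions were 15383 bp apart, the Speg and Obsl1 regions 130692 bp, and the 3 regions together spanned 146410 bp. Within this stretch Des and Obsl1 were higher and Speg was lower in the choline library, so the neighbouring regions did not move one way. No further listed region lay within 1 Mb of them. In the whole list, 8 runs of 3 consecutive regions fitted into a span of that length, and 2 of these had 3 different sets of genes: this one and a run at Rps15, Apc2 and Adamtsl5 on chromosome 10. The Ldb3 region had 1 listed neighbour within 1 Mb, at the start of Syt15, a synaptotagmin, at a distance of 328569 bp. Syt15 stood at 25% in control and 40.3% in choline DNA.

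Other genes of muscle structure were looked up in 7 lists with 169 genes, of which 165 were not among the 4 members. Of these 165, 5 had a listed region, and all 5 were higher in the choline library, each with a depth of 10 or more on both sides, beside 73.6% higher over the whole list. These 5 are 3.03% of the 165 genes, beside 274 of 21896 protein-coding genes in the RefSeq table (1.25%). The lists were drawn up with results of these data known and the genes covered by RRBS are not known here, so nothing is read from the difference between these shares. Nrap, an actin-binding protein of the muscle tendon junction, was methylated at 29.7% in control DNA (95 of 320 calls) and at 50.5% in choline DNA (186 of 368 calls). Its difference of 20.9 points is close to those of Des and Ldb3, and its depths of 40.0 and 46.0 were above theirs in both libraries. The exact 95% intervals of Nrap on calls were 24.7 to 35.0% and 45.3 to 55.8%. Intervals with mean depth as the number of reads, which are wider, were not computed for Nrap or the other list genes outside the 4 members.

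Srf, the serum response factor that drives many muscle genes, stood at 2.31% of 303 calls and 12.8% of 133 calls over 13 CpG sites of its coding sequence. Like Obsl1 and Ldb3 it was nearly unmethylated in the control library. Fhl1, a LIM protein of muscle on chromosome X, stood at 0 of 62 calls in the control library, with an exact 95% interval that reaches 5.78% and a limit of 4.84% by the rule of 3 counts, and at 6 of 60 calls (10%) in the choline library. Trim54, a ubiquitin ligase of muscle, shares its region with Mpv17 and Ucn and stood at 8.98% and 19.9%. Krt18, an epithelial keratin, stood at 15.6% and 25.8%, a difference of 10.1 points.

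By list, with the 4 members counted although they were chosen for having a region, 3 of 39 Z-disc and PDZ-LIM genes (Ldb3, Fhl1 and Trim54) had a region, 2 of 20 intermediate filament and linker genes (Des and Krt18), 2 of 10 giant kinase and obscurin genes (Speg and Obsl1), and 1 of 52 thick and thin filament genes (Nrap). Srf was the single gene with a region among 23 muscle transcription factors. None of the 22 genes of excitation-contraction coupling had one, and of the 4 genes of the 3M complex list only Obsl1 did. A gene without a listed region may have been covered without a difference or not covered at all, which the table does not tell. Among markers of brain cell types, a listed region was present at 1 of 10 for mural cells, the smooth muscle and pericytes of vessels (Des). It was present at 2 of 5 for neurons (Rbfox3 and Calb2) and at 1 of 4 for astrocytes (Aldh1l1). The counts were 0 of 3 for oligodendrocytes, 0 of 3 for microglia and 0 of 2 for endothelium. Des is a member chosen for having a region, so the mural count was fixed in advance. Over protein-coding genes the share was 274 of 21896 (1.25%). The markers are few, and nothing about cell types is read from these counts. The shares of these cell types in the 2 tissue samples are not known here and their part in the levels was not tested.

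**Figure D5:**
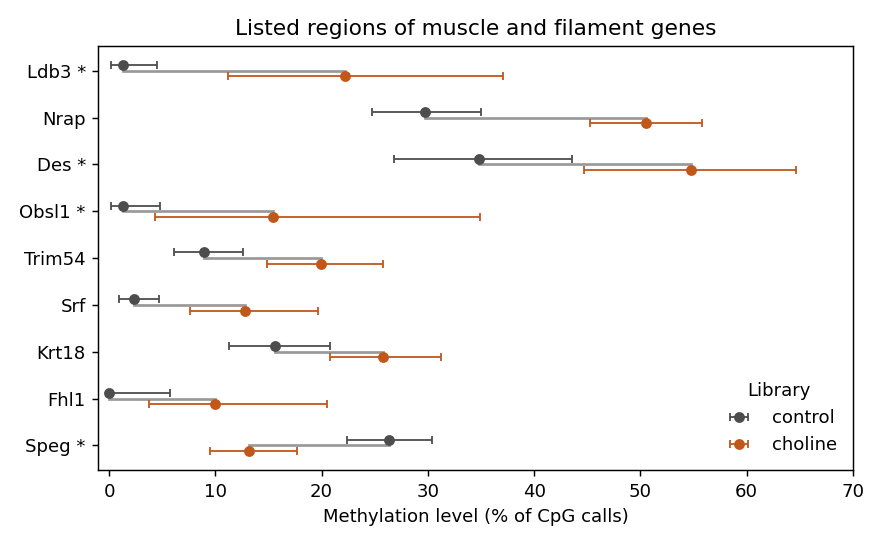
Methylation level (% of CpG calls) of the listed regions of the 4 genes (marked with an asterisk) and of 5 other genes of the muscle and filament lists, ordered by difference, in the control (grey) and choline (orange) libraries. Bars are exact 95% intervals on CpG calls; Speg alone lies lower in the choline library, and the choline bars of Obsl1 and Ldb3 are wide because they rest on 26 and 45 calls.

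Regions of other genes with the most similar pair of levels were found by the distance between the 2 levels in percentage points. Nearest to Des were coding sequence of Uvrag, an autophagy gene, at 35.7% and 55.2%, and a region of Cabp1, a neuronal calcium-binding protein, at 33.9% and 52.7%. Nearest to Speg were introns of Fads1, a fatty acid desaturase (25.7% and 13.4%), and of Sh3pxd2a, a scaffold of podosomes (25.9% and 12.3%). Nearest to Obsl1 were Cacna1g, a calcium channel, at 1.45% and 15.4% and also at a choline depth of 5.2, and a region of Bop1 and Hsf1 at 2.03% and 15.6% with a choline depth of 5.33. Nearest to Ldb3 were Slc35f1, at 3.5% and 21.3%, and Nr2f2, a nuclear receptor, at 3.48% and 20.6%. The choline depth at these was 6.1 and 6.8. Each pair of levels seen at the 4 genes thus had close counterparts at genes outside the muscle lists, and for Obsl1 and Ldb3 these counterparts were likewise shallow in the choline library.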

How the data were processed

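The members and gene lists were chosen with earlier results of these data known. Hippocampal RRBS libraries of the choline and control groups, 1 each, were compared in 1 deposited table, whose columns were matched to libraries by the codes in the sample titles. MspI digestion of 500 ng of DNA and selection of inserts of 40 to 220 bp are described per the labels' protocols. The series' design text names cutadapt, SOAPaligner 2.21 and a conversion above 99%, and the submitters' processing notes name CASAVA 1.8, mm9 and mm10. How regions were called, and with which thresholds, is not given in the sources used here.

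Per the file headers, the deposited methylation fraction is the share of methylated CpG calls in a region, the deposited signal is coverage averaged over the CpG sites, and the authors give the count of CpG sites with a p-value and an adjusted p-value. The p-values belong to the comparison that chose the regions and were not used as a test. Multiplying fraction, depth and CpG count gave whole calls in each library (relative tolerance 1e-06) for 259 of 276 regions, among them all 4 members. Depth at the members was 16.5 to 35.1 in the control and 5.2 to 20.5 in the choline library.

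Of 725 lines 160 were exact copies, and regions were counted once. Promoter symbols had lost letters and were restored in 70 lines from other lines of the same region. Intervals are exact Clopper-Pearson 95% intervals (scipy 1.17.1), on calls and on mean depth as the number of reads, and cover counting error only. The code was tested on simulated data. RefSeq windows for Des and Obsl1 were matched by symbol, and the Speg exon by the lengths of its 5' UTR and coding parts. Genes named are the members, those sharing or within 1 Mb of their regions, list genes with a region, and for each member the 2 regions nearest in both levels. Rps15, Apc2 and Adamtsl5 were named after their values were seen. As alternatives, minimum depth, CpG number and difference, merging, symbols as printed, leaving out Ldb3, and added calls or reads were tried.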

Additional observations from a re-analysis of the deposited data

How the results depend on the processing

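The number of regions kept, and how many of them were higher in the choline library, depended on the depth required. Of 4 regions, of which 3 were higher in the choline library, 2 remained when depth had to reach 10 on both sides (Des and Speg, 1 higher, median difference 16.5 points). When it had to reach 20, or with at least 10 CpG sites, 1 remained (Speg, 0 higher, 13.0 points). A difference of at least 15 points left 2 (Des and Ldb3, both higher, median 20.5 points). Without Ldb3 the median of 17.0 became 14 points over 3 regions. These changes follow from fewer regions. Merging regions within 1 kb and using symbols as printed gave 4 regions, 3 higher and 17.0 points. Adding 0.5 calls, or 0.5 reads with mean depth as the number of reads, kept the sign at all 4 genes and gave 19.8 and 18.7 points at Des, -13.0 and -12.0 at Speg, 15 and 18 at Obsl1, and 21.3 and 22.2 at Ldb3. No paired analysis was possible because each group had 1 library, and for the same reason no library could be left out.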
